A study of Homo sapiens with 12 samples.

Results

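Interferon regulatory factors (IRFs) were examined as 6 genes, IRF1, IRF2, IRF3, IRF5, IRF7 and IRF8, taken from the gene table by symbol. The table held 60099 genes, of which 19944 passed the filter on low counts, and 5 of the 6 IRF genes were among them, IRF8 being the exception. RNA was sequenced from 2 sets of samples of head and neck squamous cell carcinoma (HNSCC) cells after 24 h with 0, 20 or 200 ng/ml IFNα, a type I interferon. In the set A-C, A was the control, B received the low dose of 20 ng/ml and C the high dose of 200 ng/ml, and in the set D-F the control, low-dose and high-dose samples were D, E and F, with 2 samples for each letter and 12 in all. The study used the established HNSCC lines Cal27 and HN30, but the sample labels do not tell which set is which line, so the sets are called by their letters. Each line was grown alone in culture, without the immune and stromal cells of a tumor. Nothing in the labels says whether the 2 samples of a letter came from separate cultures, so p-values measure the spread between these samples only.

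IRFs are transcription factors that share a DNA-binding domain with a row of conserved tryptophans and bind GAAA repeats, as found in the interferon-stimulated response element (ISRE). IRF3 and IRF7 are held in the cytoplasm until kinases downstream of nucleic acid sensors phosphorylate them, and they then switch on type I interferon genes. IFNα itself signals through IFNAR, JAK1 and TYK2 to the factor ISGF3, and IRF7 and IRF1 are known targets of that signaling. IRF1 and IRF2 compete for the same elements, IRF1 being an activator and IRF2 mostly a repressor. IRF5 acts downstream of Toll-like receptors, mainly in myeloid and B cells, and IRF8 is a factor of the myeloid and lymphoid lineages.

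Promoter windows, which run from 250 bases before to 50 bases after a RefSeq start site (GRCh38.p14), were at hand for IRF1, IRF5 and IRF8, with 7 windows in all. They are shown for an element of interferon-responsive promoters and for pairs of GAAA. The motifs TTCNNNGAA (GAS, the gamma-activated site), the ISRE core (a GAAA pair 2 bases apart) and GAAANGAAA (a GAAA pair 1 base apart) were searched on both strands. The IRF1 window, on the minus strand at chr5:132490724-132491023, held a GAS match from base -124 to base -116 relative to the start site, shown in capitals. The motif matches both strands at that place.
IRF1: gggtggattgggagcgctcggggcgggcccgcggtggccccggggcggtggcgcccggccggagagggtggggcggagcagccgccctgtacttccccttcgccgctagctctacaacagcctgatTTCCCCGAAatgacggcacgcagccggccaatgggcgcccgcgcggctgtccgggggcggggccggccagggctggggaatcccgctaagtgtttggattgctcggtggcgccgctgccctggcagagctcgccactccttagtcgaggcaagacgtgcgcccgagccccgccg
Among 35116 windows of the same length, 7.66% held a GAS match. The ISRE core was in none of the 7 windows and in 3.57% of all windows. GAAA pairs 1 base apart, found in 3.12% of all windows, were in 1 of 4 IRF5 windows (plus strand, chr7:128940420-128940719, match in capitals on the reverse strand) and in 1 of 2 IRF8 windows (plus strand, chr16:85902580-85902879, match in capitals).
IRF5: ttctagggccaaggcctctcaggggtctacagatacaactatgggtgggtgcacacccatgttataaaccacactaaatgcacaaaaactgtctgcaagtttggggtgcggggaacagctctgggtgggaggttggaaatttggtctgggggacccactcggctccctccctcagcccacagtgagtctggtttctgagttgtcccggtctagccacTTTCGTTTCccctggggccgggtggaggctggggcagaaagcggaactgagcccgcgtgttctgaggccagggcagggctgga
IRF8: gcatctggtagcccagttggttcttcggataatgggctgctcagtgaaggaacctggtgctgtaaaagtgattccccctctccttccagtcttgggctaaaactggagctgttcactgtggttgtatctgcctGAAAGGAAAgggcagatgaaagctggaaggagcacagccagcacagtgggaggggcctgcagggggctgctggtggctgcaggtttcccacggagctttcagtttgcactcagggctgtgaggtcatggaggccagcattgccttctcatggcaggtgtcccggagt
A match describes letters in the window and is not a measured binding site.

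The libraries held between 10517448 and 16056734 estimated counts, and 3 counts, taken as the floor of detection, were worth 0.187 to 0.285 CPM (counts scaled to the library total). The log2 CPM of samples of the same set correlated across genes at 0.957 to 0.977, and those of different sets at 0.808 to 0.834. All 12 markers of squamous epithelium were detected, though KRT14 was at 0 TPM in its lowest sample. Their summed level was 1654 to 3867 TPM (transcript abundance scaled for length and depth) per sample. Of 10 leukocyte markers, 7 stayed at 3 counts or fewer in every sample, among them PTPRC, the pan-leukocyte marker CD45. The others, CSF1R, CD14 and ITGAM, reached 95, 44 and 25 counts, and CSF1R was at 1.48 TPM or more in every sample. The summed level of the list was 2.98 to 7.22 TPM. Of 6 fibroblast markers COL1A1 was highest, reaching 293 counts and 13.0 TPM. Of 3 endothelial markers CDH5 was highest, reaching 526 counts and ranging from 0 to 21.7 TPM.

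Which IRF genes IFNα moved was tested with edgeR's quasi-likelihood test over all genes. Averaged over both sets, 3 of the 5 tested IRF genes rose at 200 ng/ml and none fell, while 4.98% of all tested genes rose and 4.57% fell. IRF7 rose 7.01-fold, IRF2 by 65.0% and IRF1 by 31.9%, with adjusted p = 3.26e-06, 0.00291 and 0.00432. At 20 ng/ml 2 rose, IRF7 and IRF1, and none fell, against 2.33% of all tested genes rising and 1.6% falling. IRF7 was the only IRF gene past a 2-fold change at either dose, which 1.58% of all genes passed upwards at 200 ng/ml and 0.963% at 20 ng/ml. Within A-C, IRF7 and IRF2 passed at 200 ng/ml and IRF7 at 20 ng/ml, where 3.58% and 0.913% of all tested genes rose. Within D-F, IRF7 and IRF1 passed at both doses, where 3.44% of all tested genes rose at 200 ng/ml and 2.15% at 20 ng/ml. The median log2 fold change of the 5 genes at 200 ng/ml was 0.40, and that of all tested genes was -0.01.

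IRF7 (ENSG00000185507, minus strand of chromosome 11, 612553 to 615999) had the largest fold change of the 5 tested members and is the one known to amplify type I interferon production. In A-C it stood at 4.19 and 5.81 CPM in the controls, 29.5 and 34.0 CPM at 20 ng/ml and 29.8 and 19.5 CPM at 200 ng/ml. In D-F it stood at 10.7 and 10.5 CPM in the controls, 81.7 and 94.2 CPM at 20 ng/ml and 114 and 99.4 CPM at 200 ng/ml. All 8 treated samples lay above all 4 controls. Separations of that kind at 200 ng/ml, all 4 treated above all 4 controls, were found for 2.59% of tested genes. Log2 fold changes against the control were 2.65 (SE 0.23) for B and 3.05 (SE 0.22) for E, with edgeR adjusted p = 0.000198 and 3.43e-05. They were 2.29 (SE 0.23) for C and 3.33 (SE 0.22) for F, with edgeR adjusted p = 0.00049 and 1.57e-05. The log2 difference of IRF7 between 200 and 20 ng/ml was -0.04 (SE 0.14, edgeR adjusted p = 0.987), an average of -0.36 (SE 0.20, edgeR adjusted p = 0.5) in A-C and 0.27 (SE 0.20, edgeR adjusted p = 1) in D-F. The average ranged from -0.22 to 0.091 with 1 sample left out. The controls themselves differed, D lying 2.11-fold above A (log2 1.07, SE 0.23, edgeR adjusted p = 0.00361), in a comparison that 46.4% of tested genes passed, 24.1% higher and 22.4% lower in D.

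**Figure D1:**
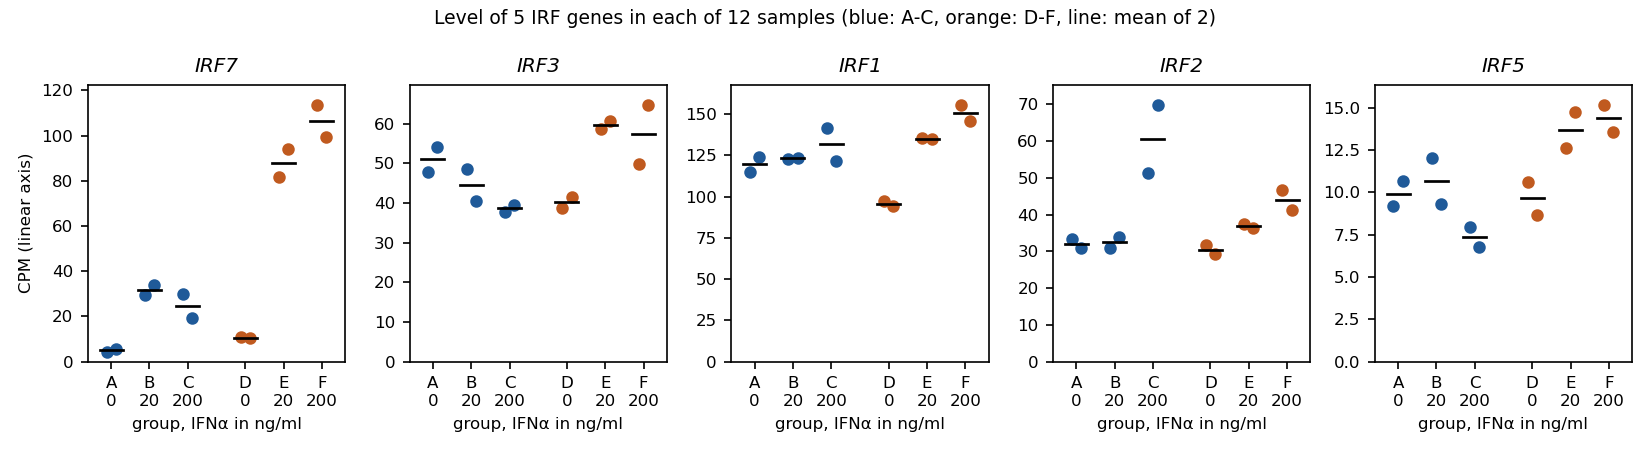
Level of the 5 tested IRF genes in each of the 12 samples. The vertical axes give CPM on linear scales that start at 0 and differ between panels, the horizontal axes give the sample letter with the IFNα dose in ng/ml, points are samples (blue A-C, orange D-F) and black lines are means of 2. IRF7 rises at 20 ng/ml in both sets, and IRF2 is highest in C, at 51.3 and 69.8 CPM. IRF3 and IRF5 lie lower in C than in A and higher in F than in D, differences that did not pass in edgeR with all samples.

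IRF3 (ENSG00000126456, minus strand of chromosome 19, 49659569 to 49665875), which IRF7 resembles in activation but which most cells make constitutively, did not pass at either dose in edgeR. Its level in A-C was 47.9 and 54.2 CPM in the controls, 48.6 and 40.6 CPM at 20 ng/ml and 37.7 and 39.6 CPM at 200 ng/ml. In D-F it was 38.6 and 41.6 CPM in the controls, 58.6 and 60.5 CPM at 20 ng/ml and 49.9 and 64.7 CPM at 200 ng/ml. The C samples lay below both A samples, and the E and F samples lay above both D samples. Groups of 2 that separate in this way were common, 25.8% of tested genes lying wholly lower in C than in A. Wholly higher than in D were 25.3% of tested genes in F and 23.1% in E. The log2 change of C over A was -0.40 (SE 0.14, edgeR adjusted p = 0.137) and that of F over D was 0.51 (SE 0.14, edgeR adjusted p = 0.0745). Within D-F the call depended on the fit, DESeq2 passing IRF3 at 200 ng/ml (adjusted p = 0.0366) and at 20 ng/ml (adjusted p = 0.0188), and edgeR passing it at 200 ng/ml without sample F1 (adjusted p = 0.0497).

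Since IRF7 rose and IRF3 did not, the ratio of their TPM, which are scaled for transcript length, was followed in each sample. Without IFNα the ratio of IRF7 to IRF3 was 0.0901 and 0.0785 in A and 0.221 and 0.266 in D. At 20 ng/ml it was 0.502 and 0.616 in B and 1.21 and 1.07 in E. With the high dose it was 0.628 and 0.454 in C and 1.86 and 1.20 in F. IRF3 RNA thus exceeded IRF7 RNA in every A-C sample, while in every treated D-F sample IRF7 exceeded IRF3.

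**Figure D2:**
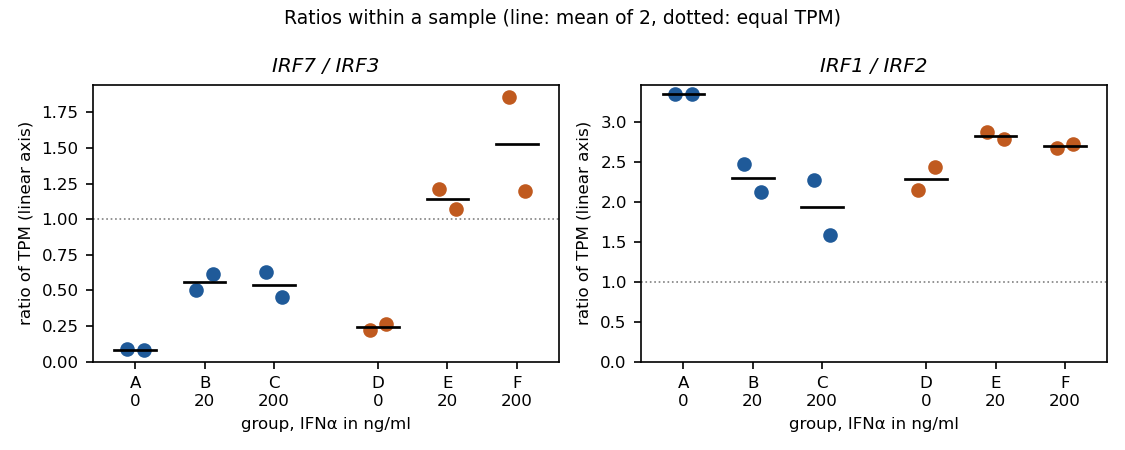
Ratios of TPM within each sample, IRF7 to IRF3 on the left and IRF1 to IRF2 on the right. The vertical axes are linear and start at 0, points are samples (blue A-C, orange D-F), black lines are means of 2 and the dotted line marks equal TPM. The IRF7 to IRF3 ratio passes 1 in the E and F samples only, and the IRF1 to IRF2 ratio falls from 3.34 and 3.35 in A to 2.27 and 1.58 in C.

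IRF1 (ENSG00000125347, minus strand of chromosome 5, 132481609 to 132490798), the activator of the IRF1 and IRF2 pair, was the most abundant member by mean TPM in each letter. Its level in A-C was 115 and 124 CPM in the controls, 123 and 124 CPM at 20 ng/ml and 142 and 122 CPM at 200 ng/ml. In D-F it was 97.0 and 94.0 CPM in the controls, 135 and 135 CPM at 20 ng/ml and 155 and 146 CPM at 200 ng/ml. The A, B and C samples overlapped, whereas all 4 treated D-F samples lay above both D samples. Such separations of 2 and 2 samples were common, 23.1% of tested genes lying wholly higher in E than in D and 25.3% in F than in D. The log2 change of C over A was 0.14 (SE 0.09, edgeR adjusted p = 0.395) and that of F over D was 0.66 (SE 0.09, edgeR adjusted p = 0.00234). At the low dose the values were 0.05 (SE 0.09) for B over A and 0.50 (SE 0.09, edgeR adjusted p = 0.0159) for E over D. The call of E over D was lost with a replicate block (edgeR adjusted p = 0.0503) and without D1, D2, E1 or E2 (0.0881, 0.116, 0.0925 and 0.0901), while that of F over D was kept in all 17 alternative fits. The averaged change at 20 ng/ml, 0.27 (SE 0.06, edgeR adjusted p = 0.0456), was past the threshold in 5 of 18 alternative fits, and its adjusted p ranged from 0.00741 to 0.241 over them. The D controls were lower than the A controls, by 0.32 on the log2 scale (SE 0.09, edgeR adjusted p = 0.0147).

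IRF2 (ENSG00000168310, minus strand of chromosome 4, 184387713 to 184474580), the antagonist, rose at the high dose. In A-C it stood at 33.4 and 30.8 CPM in the controls, 30.95 and 34.0 CPM at 20 ng/ml and 51.3 and 69.8 CPM at 200 ng/ml. In D-F it stood at 31.6 and 29.2 CPM in the controls, 37.4 and 36.4 CPM at 20 ng/ml and 46.7 and 41.2 CPM at 200 ng/ml. The C samples lay above every other sample, whereas the B samples overlapped the A samples. The 4 high-dose samples lay above all 4 controls, as was found for 2.59% of tested genes. The log2 change of C over A was 0.92 (SE 0.15, edgeR adjusted p = 0.00908), with an adjusted p of 0.0735 once sample A2 was left out. That of F over D was 0.53 (SE 0.15, edgeR adjusted p = 0.0778), and it passed in DESeq2 (adjusted p = 0.0475) and in edgeR without sample C1 (0.0316) or C2 (0.032). At 20 ng/ml the averaged log2 fold change was 0.15 (SE 0.11, edgeR adjusted p = 0.558). Averaged over the sets, IRF2 was the only IRF gene to pass the comparison of the 2 doses in any of the fits run. The log2 difference of 200 over 20 ng/ml was 0.57 (SE 0.11), with an adjusted p of 0.107 by edgeR, 0.00204 by DESeq2 and 0.0201 by edgeR without sample C1. It was 0.90 (SE 0.15, edgeR adjusted p = 0.0634) in A-C and 0.25 (SE 0.15, edgeR adjusted p = 1) in D-F. Among all tested genes 0.135% passed that comparison in edgeR and 0.837% in DESeq2, and of the IRF genes edgeR passed 0. The TPM ratio of IRF1 to IRF2 was 3.34 and 3.35 in A, 2.47 and 2.12 in B and 2.27 and 1.58 in C. In D-F it was 2.15 and 2.43 in D, 2.87 and 2.78 in E and 2.67 and 2.72 in F. In TPM the ratio was thus lower in every treated A-C sample than in the A controls and higher in every treated D-F sample than in the D controls. In CPM the B samples, at 3.97 and 3.63, lay between the A samples, at 3.43 and 4.03, so counts show no fall at 20 ng/ml, whereas the C samples lay lower, at 2.76 and 1.74. The D-F order held in CPM, with 3.07 and 3.21 in D and 3.33 to 3.70 in E and F.

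IRF5 (ENSG00000128604, plus strand of chromosome 7, 128937612 to 128950035) was the lowest of the tested members under IFNα. It stood at 9.2 and 10.7 CPM in A, 12.03 and 9.3 CPM in B and 7.9 and 6.8 CPM in C. In D-F it stood at 10.6 and 8.7 CPM in D, 12.6 and 14.7 CPM in E and 15.2 and 13.6 CPM in F. As for IRF3, the C samples lay below the A samples and the E and F samples above the D samples. Among all tested genes 25.8% lay wholly lower in C than in A. Wholly higher than in D were 23.1% in E and 25.3% in F. The log2 change of C over A was -0.43 (SE 0.20, edgeR adjusted p = 0.25) and that of F over D was 0.58 (SE 0.20, edgeR adjusted p = 0.142). Units mattered for the controls of this gene, the difference of D over A being -0.04 (SE 0.20) on the log2 count scale and 0.51 on the log2 TPM scale (limma adjusted p = 0.138). TPM depends on which transcripts the reads were assigned to, and that division varied between replicates.

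IRF8 (ENSG00000140968, plus strand of chromosome 16, 85898803 to 85922609) was at or under the floor everywhere. It had an estimated count of 2 in A1 and in B1 and of 0 in the other 10 samples, where 0 counts allow up to 0.187 to 0.285 CPM. No level above the floor was detectable at this depth in any dose group, and no fold change was computed. Of the transcription factors that IRF8 is known to bind DNA with, SPI1 (PU.1) had 0 counts in all samples, and SPIB and BATF reached at most 4. Others were detected, BATF3 reaching 42 counts and ETV6 2149, both above the floor in all 12 samples. BATF2 reached 252 counts and was above the floor in 10 samples. The floors given here cover counting error only.

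**Figure D3:**
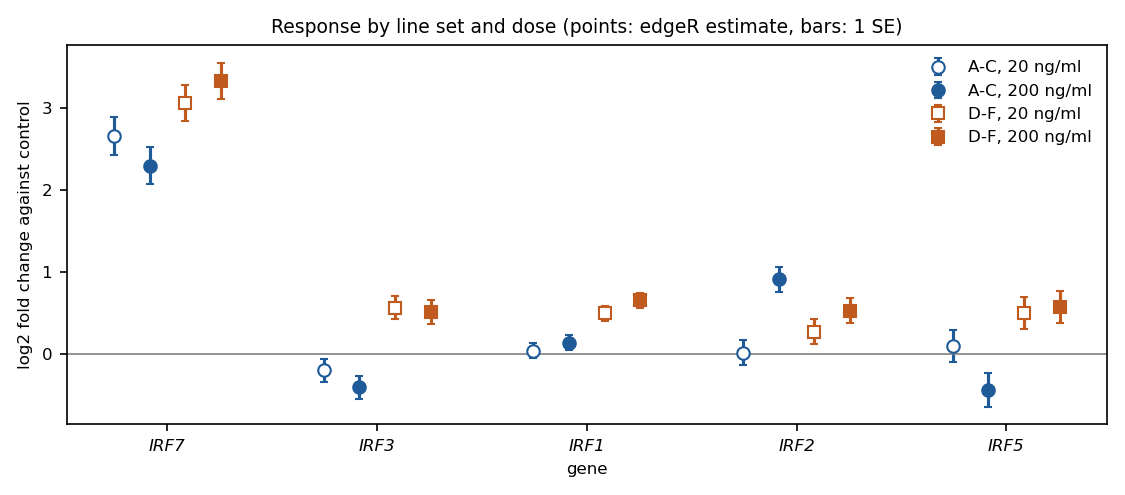
Log2 fold change against the control of the same set for the 5 tested genes (points, edgeR estimate; bars, 1 SE). Circles are A-C, squares are D-F, open symbols are 20 ng/ml and filled symbols are 200 ng/ml. IRF7 stands at 2.29 to 3.33 in all 4 comparisons, and for IRF3, IRF1 and IRF5 the D-F points lie above the A-C points at both doses.

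Whether the sets responded differently was tested as the difference of their log2 fold changes. At 200 ng/ml the D-F response exceeded the A-C response by 1.03 for IRF7 (SE 0.31), 1.01 for IRF5 (SE 0.28), 0.92 for IRF3 (SE 0.20) and 0.51 for IRF1 (SE 0.13), and for IRF2 the difference was -0.38 (SE 0.21). None of the 5 passed in edgeR, where 1.88% of all tested genes did. The edgeR adjusted p values were 0.0582 for IRF3, 0.0764 for IRF1, 0.11 for IRF5, 0.123 for IRF7 and 0.386 for IRF2. DESeq2, in which 4.72% of all tested genes passed, passed 3 of the 5, IRF3 (adjusted p = 0.00709), IRF1 (0.0255) and IRF7 (0.0364). Without sample C1, edgeR passed IRF1 (adjusted p = 0.0354) and IRF7 (0.0372). At 20 ng/ml neither edgeR nor DESeq2 passed any of the 5, and 0.371% of all tested genes passed in edgeR.

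The order of the members by TPM differed between controls and treated samples in the place of IRF7 and, in C, of IRF2. In A the order was IRF1, IRF3, IRF2, IRF5 and IRF7, with mean levels of 87.3, 61.9, 26.1, 8.27 and 5.21 TPM, and no neighbours in it overlapped. In D it was IRF1, IRF3, IRF2, IRF7 and IRF5, where IRF7 (12.4 and 12.6 TPM) and IRF5 (9.83 and 14.0 TPM) overlapped. In C, IRF7 lay at 22.3 and 28.8 TPM, below IRF2 (41.4 and 56.4 TPM) and IRF3 (45.8 and 49.2 TPM), which overlapped each other. In F it came next after IRF1, at 113 and 126 TPM, overlapping IRF1 at 115 and 127 TPM.

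IRF9, the DNA-binding subunit of the factor ISGF3, is shown for comparison. It stood at 10.2 to 31.1 TPM in the 4 controls and 113 to 155 TPM in the 4 high-dose samples, with a log2 fold change of 2.69 (SE 0.13, edgeR adjusted p = 1.03e-06), close to the 2.81 (SE 0.16) of IRF7.

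The transcripts behind the gene counts were examined next, because the libraries were made from total RNA depleted of ribosomal RNA, in which unspliced RNA and transcripts with a retained intron cannot be told apart. The table listed 93 transcripts of the 6 genes, of which 48 passed the filter. IRF7 had 14 of them, all with a positive log2 fold change at 200 ng/ml, and 11 had an unadjusted p of 0.05 or less, a rule that 4.03% of all tested transcripts met in the upward direction. No transcript of any IRF gene passed edgeR's adjusted threshold, which 0.597% of all tested transcripts did. Of the 48, 16 had an unadjusted p of 0.05 or less, all upward, and DESeq2, which passed 3.99% of all tested transcripts, passed 10, all higher and 8 of them from IRF7. The nearest in edgeR was IRF7-208 (ENST00000525750), annotated with a retained intron. It stood at 0.34 and 0.28 TPM in A, 2.80 and 2.77 TPM in B and 2.25 and 0.68 TPM in C, and at 1.16 and 0.69 TPM in D, 8.05 and 8.50 TPM in E and 10.4 and 8.83 TPM in F. Its log2 fold change was 2.56 (SE 0.42, edgeR adjusted p = 0.0553), near that of the gene.

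The shares of a gene's TPM by annotated transcript type overlapped between doses. Protein-coding transcripts carried 21.5% to 73.3% of IRF7 TPM in the controls, 46.4% to 55.9% at 20 ng/ml and 37.7% to 52.2% at 200 ng/ml. IRF7 transcripts with a retained intron carried 72.7% in A1 and 23.3% in A2, a gap between replicates wider than any between the means of the dose groups. For IRF2 the protein-coding share was 87.6% to 93.1% in the controls and 88.7% to 95.2% at 200 ng/ml, and for IRF1 82.0% to 83.2% and 80.3% to 86.0%. The exact two-sided permutation test within sets, with 36 arrangements and a smallest possible p of 0.0556, could not reach 0.05. Of 23 transcripts tested for their share, 1 was at that smallest p, IRF7-204 (ENST00000397570, protein coding), which went from 4.83% (SD 3.35, n = 4) to 12.7% (SD 2.74, n = 4).

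Single transcripts were less certain than genes. IRF1-202 (ENST00000405885) carried most of IRF1 in 11 samples, for example 48.8 TPM in B1, but was listed at 0 in B2, where IRF1-201 (ENST00000245414) stood at 33.0 TPM against 7.62 TPM in B1. Only 1.28% of the stretches of 31 bases in IRF1-202 occur in no other transcript of the gene. IRF3-221 (ENST00000598808), with no such stretch, was listed at 34.5 and 37.1 TPM in A but at 0 and 21.8 TPM in B and 24.8 and 0 TPM in D. The gene counts equal the sums of the transcript counts in all 60099 genes, so an exchange between transcripts of a gene stays within its count. That does not hold for TPM, in which IRF1 stood at 84.8 in B1 and 69.7 in B2, at 123 and 124 CPM.

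**Figure D4:**
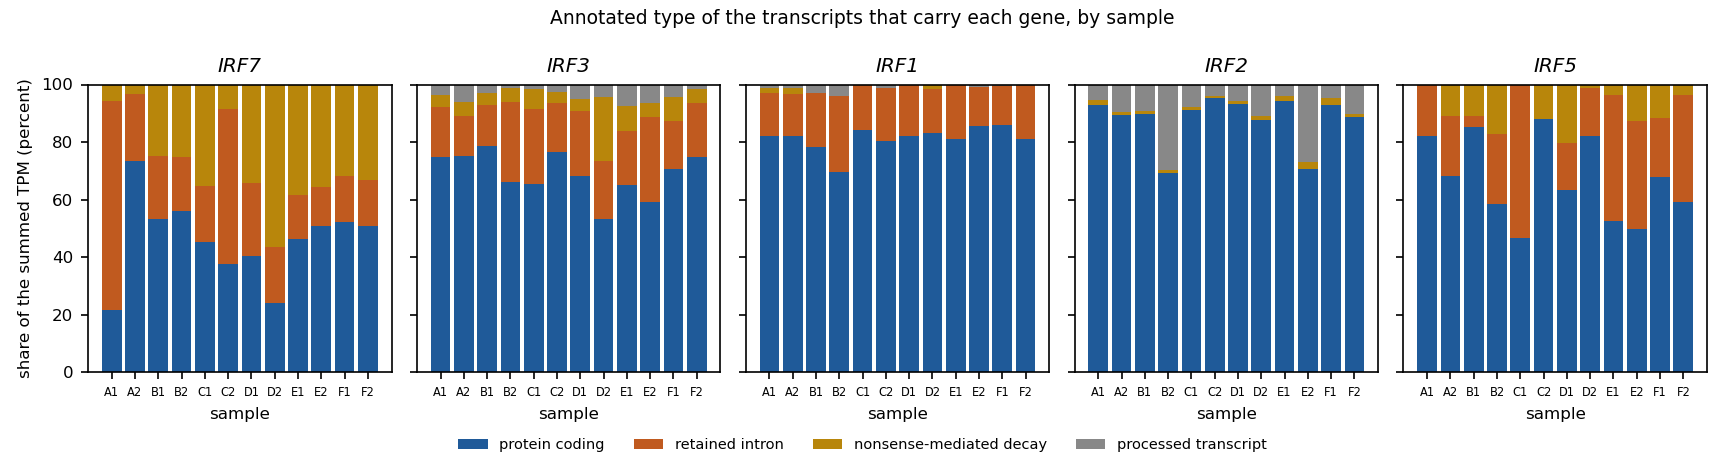
Share of each gene's summed TPM by annotated transcript type in each of the 12 samples, in percent. Each bar is a sample and the colors are protein coding, retained intron, nonsense-mediated decay and processed transcript. Protein-coding transcripts carry most of IRF1 and IRF2 in every sample, and the IRF7 bars of A1, A2, D1 and D2, where IRF7 is lowest, differ most.

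Other genes at the loci were read beside the members. C5orf56, on the opposite strand to IRF1, overlaps it and shares 1716 exonic bases with it, 22.0% of the exonic bases of IRF1. It rose from 18.5 to 32.0 TPM in the controls to 38.7 to 47.0 TPM at 200 ng/ml, with a log2 fold change of 0.81 (SE 0.07, edgeR adjusted p = 0.000147). The library kit marked strand, but whether counting used it is not given in the sources used here, so reads in the shared part may belong to either gene. BCL2L12 shares 734 exonic bases with IRF3 on the opposite strand, 19.3% of those of IRF3, and its log2 fold change was -0.42 (SE 0.16, edgeR adjusted p = 0.153). PHRF1, which lies 331 bases from IRF7 on the opposite strand, fell by 0.49 on the log2 scale (SE 0.10, edgeR adjusted p = 0.0136), and TNPO3, 4145 bases from IRF5, fell by 0.21 (SE 0.05, edgeR adjusted p = 0.0237). The TNPO3 call was lost in 7 alternative fits and that of PHRF1 in 2. SCAF1 and PRMT1 beside IRF3 did not pass, with log2 fold changes of -0.29 (SE 0.10) and -0.17 (SE 0.06). AC116366.3, also on the opposite strand, spans IRF1 and shares 469 exonic bases with it, 6.01% of those of IRF1. Its log2 fold change was 0.34 (SE 1.06, edgeR adjusted p = 0.921). By set the values were -2.62 (SE 1.58) in A-C and 3.29 (SE 1.42) in D-F, and neither passed. Of the other genes at these loci, AC116366.1, AC099343.2, AC099343.3 and AC025594.4 were tested and none passed. LINC02362, SNORD79, CDHR5 and MIR6774 were below the filter.

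The genes of the pathways around the IRFs were taken from lists chosen with earlier results of these data known, and a list's count is a description. Of 18 genes that activate IRF3 and IRF7 (sensors, adaptors and kinases), 7 rose at 200 ng/ml and 1 fell, with a median log2 fold change of 0.33. Over all tested genes 4.98% rose and 4.57% fell, with a median of -0.01. The cytoplasmic RNA sensors DDX58 (RIG-I) and IFIH1 (MDA5) rose most. DDX58 stood at 20.8 to 29.6 TPM in the controls and 178 to 193 TPM at 200 ng/ml (log2 2.83, SE 0.06, edgeR adjusted p = 2.55e-09), and IFIH1 at 16.4 to 22.5 and 97.3 to 155 TPM (log2 2.75, SE 0.07, edgeR adjusted p = 1.42e-08). MAVS, the mitochondrial adaptor through which both sensors signal, fell by 0.45 on the log2 scale (SE 0.05, edgeR adjusted p = 0.000355), from 40.2 to 72.3 TPM in the controls to 30.3 to 53.9 TPM. IRAK1, a kinase of the Toll-like receptor pathway, had the other lowest value, -0.45 (SE 0.14, edgeR adjusted p = 0.0722).

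Of 6 genes of the IFNα receptor, its kinases and ISGF3, STAT2 and IRF9, 2 in all, rose at 200 ng/ml and none fell. Among all tested genes 4.98% rose and 4.57% fell. STAT2 stood at 72.5 to 86.7 TPM in the controls and 255 to 346 TPM at 200 ng/ml (log2 1.80, SE 0.08, edgeR adjusted p = 6.8e-07). The receptor chain IFNAR1 stood at 16.6 to 23.0 TPM in the controls and 17.4 to 20.3 TPM at 200 ng/ml, and TYK2 had a log2 fold change of 0.02 (SE 0.08). Neither passed.

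The list of 21 type I and type III interferon genes includes genes that IRF3 and IRF7 are known to switch on, though not every gene of it is such a target. Of the 21, 16 had 0 counts in every sample and 17 had at most 3. IFNE, an epithelial interferon, was the only one tested, at 3.01 to 10.2 TPM in the controls and 1.37 to 11.9 TPM at 200 ng/ml (log2 -0.22, SE 0.26, edgeR adjusted p = 0.684). IFNB1, the interferon-β gene, had 2 to 4 counts in each of the 4 low-dose samples, 2 in D2 and F1, and 0 in the other 6. IFNL1, a type III interferon gene, reached 4 and 8 counts in E and 6 in F1, against at most 3 in the controls, and had 0 in 6 samples. IFNA5 had 4 counts in F1 and 2 in D2. These genes were below the filter and were not tested, and no change of the other 17 was detectable at this depth.

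Of 18 genes known as IRF1 targets, 11 rose at 200 ng/ml and none fell, with a median log2 fold change of 0.86. Over all tested genes 4.98% rose and 4.57% fell, with a median of -0.01. IRF1 itself rose by 0.40 on the log2 scale averaged over the sets, 0.14 in A-C, where it did not pass, and 0.66 in D-F. In A-C 9 of the 18 genes rose and in D-F 11, against 3.58% and 3.44% of all tested genes. Whether the rise of these genes had to do with IRF1 was not tested. TNFSF10, which encodes the death ligand TRAIL, stood at 11.4 to 36.4 TPM in the controls and 107 to 191 TPM at 200 ng/ml (log2 2.91, SE 0.26, edgeR adjusted p = 0.000108). IDO1, a tryptophan-degrading enzyme, stood at 0 to 1.70 TPM in the controls and 4.02 to 5.14 TPM at 200 ng/ml (edgeR adjusted p = 0.000207). It had 0 counts in both D samples and 45 and 49 in F, at least 39.4-fold higher when the 2 D samples together are set to 3 counts. SOCS1, an inhibitor of JAK signaling, and CDKN1A, the cell cycle inhibitor p21, had the lowest values, 0.31 (SE 0.31) and 0.04 (SE 0.08), and did not pass. The SOCS1 value averages -0.90 (SE 0.39) in A-C and 1.52 (SE 0.50) in D-F, neither of which passed. The difference between the sets did not pass either (edgeR adjusted p = 0.092). The test of a different response between the sets was passed by 5 of the 18 and by 1.88% of all tested genes. The 5 were TAP1, TAP2, PSMB8, NLRC5 and IDO1, and each had the larger response in D-F. The first 4 serve antigen presentation by MHC class I. Without IFNα, 10 of the 18 were lower and 3 higher in D than in A. In that comparison 22.4% of all tested genes were lower and 24.1% higher.

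Of 8 tested genes among the partners and cofactors of IRFs, BATF2 rose and IRF2BPL fell at 200 ng/ml. Among all tested genes 4.98% rose and 4.57% fell. BATF2, a basic leucine zipper factor, stood at 0 to 1.73 TPM in the controls and 11.8 to 17.4 TPM at 200 ng/ml (edgeR adjusted p = 5.23e-06). IRF2BPL, a paralog of the IRF2-binding repressors, fell by 0.39 on the log2 scale (SE 0.07, edgeR adjusted p = 0.00948), a call not kept by limma on log2 TPM (adjusted p = 0.0719). IRF2BP1 had a log2 fold change of -0.45 (SE 0.14, edgeR adjusted p = 0.0732) and the coactivator CREBBP one of 0.14 (SE 0.09). Of 5 regulators of IRF proteins, the ubiquitin ligase TRIM21 rose by 1.97 (SE 0.08, edgeR adjusted p = 1.67e-07) and RBCK1 by 0.58 (SE 0.09, edgeR adjusted p = 0.00432). TRIM28 (-0.19, SE 0.07) and STUB1 (-0.17, SE 0.14) did not pass.

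**Figure D5:**
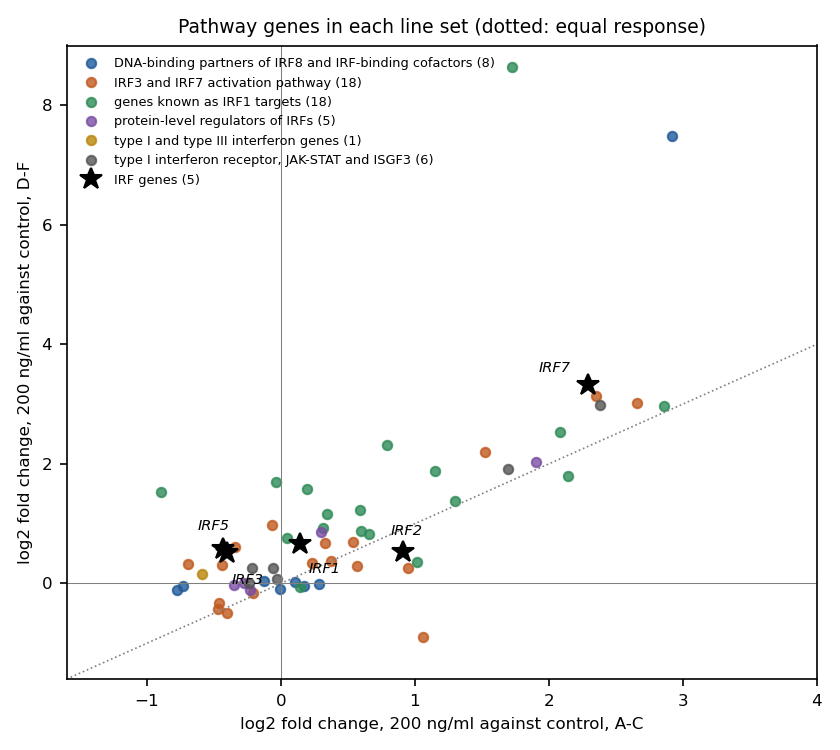
Log2 fold change at 200 ng/ml in A-C (horizontal) and D-F (vertical) for the tested genes of the 6 lists (points, colored by list) and the 5 tested IRF genes (stars). The dotted line marks equal responses. IRF7 lies beside the sensors at 2.29 and 3.33, IRF3 and IRF5 lie left of 0 and above 0, and the 2 highest points are IDO1 and BATF2, whose D controls held almost no reads.

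The genes whose log2 CPM followed each member most closely over the 12 samples were also listed, from 19943 other genes. These correlations are descriptions, since the 12 points share their 2 sets and 3 doses. The genes were picked for following a member in these same samples. Directions they share with that member thus come largely with the choice and are no separate result. IRF7 was followed by HELZ2 (r = 0.984), TYMP (thymidine phosphorylase, r = 0.982) and a locus without a symbol (r = 0.981). IRF1 was followed by TMEM229B (r = 0.964), CD68 (r = 0.952) and the nonclassical HLA gene HLA-E (r = 0.932). All 5 named genes had a larger log2 fold change at 200 ng/ml in D-F than in A-C, as IRF7 and IRF1 had. IRF2 was followed by VEZT (r = 0.947), a locus without a symbol (r = 0.905) and PARP8 (r = 0.904). IRF3 was followed by FAM120C (r = 0.945), INPPL1 (r = 0.914) and NR2C2AP (r = 0.914), and IRF5 by SLC6A9 (r = 0.927), MLLT6 (r = 0.925) and LINC01347 (r = 0.915). Each of those 6 genes, like IRF3 and IRF5, had a negative log2 fold change at 200 ng/ml in A-C and a positive one in D-F.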

How the data were processed

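The authors sequenced RNA of 12 samples of 2 HNSCC lines, 2 for each line set and dose, after removing ribosomal RNA and with a kit that marks strand. The deposited tables give estimated counts, given as whole numbers without scaling, and TPM and FPKM, which the authors scaled for length and depth. The submitters' processing notes name Trimmomatic 0.36, HISAT2 2.1.0, StringTie 1.3.3b and GRCh38.p10. The deposited FPKM were not used. The columns of every sample were matched by name, and transcript types, exons and names came from GENCODE v29, in which all 93 member transcripts were found and 88 lay at the same position.

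Members and gene lists were chosen with earlier results of these data known, and 1 gene of the lists is not reported here. Samples were grouped by letter from their titles, with the doses of 20 and 200 ng/ml and the 24 h from the study's design. Counts of all 19944 genes and 75876 transcripts left by filterByExpr were scaled by TMM and fitted with edgeR 4.0.16 (glmQLFit and glmQLFTest, 6 letter groups, all 12 samples), p-values were adjusted by Benjamini-Hochberg over all features tested, and passing meant an adjusted p of 0.05 or less. The scripts were tested on simulated counts. The alternatives were DESeq2 1.42.0, DESeq2 size factors in edgeR, no filter, a replicate block within line sets, the compared dose groups alone, each sample left out, a 2-fold minimum and limma 3.58.1 on log2(TPM + 0.1). Settings for the pathway lists and neighbouring genes were added after seeing the data.

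CPM are counts over TMM-scaled totals. The total per library, 10517448 to 16056734 estimated counts, sets the floor of 3 counts, and floors cover counting error only. Replicates of a letter differed beyond counting error, the chi-square statistic over its degrees of freedom being 14.3 to 19.7. Named genes were the members, their transcripts, the 2 highest and 2 lowest tested genes of each list at 200 ng/ml with IRF9, genes within 10 kb of a member, and the 3 genes of highest correlation with each. TAP1, TAP2, PSMB8, NLRC5, IFNB1, IFNL1, IFNA5, SPI1, SPIB, BATF, BATF3, ETV6 and PTPRC were named after their values were seen. So were the markers CSF1R, CD14, ITGAM, KRT14, COL1A1 and CDH5. Motifs were searched in RefSeq promoter windows, and IRF2, IRF3 and IRF7 had none here.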

Additional observations from a re-analysis of the deposited data

Results flagged for a closer look

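At 200 ng/ml the CPM of IRF3 and of IRF5 lay on opposite sides of the controls in the 2 sets. Each C sample lay below each A sample and each F sample above each D sample. Separations of 2 and 2 samples were common, 25.8% of tested genes lying wholly lower in C and 25.3% wholly higher in F. Within a set neither gene passed in edgeR with all samples, the adjusted p being 0.137 and 0.0745 for IRF3 and 0.25 and 0.142 for IRF5. The log2 difference between the sets was 0.92 for IRF3 and 1.01 for IRF5, with adjusted p values of 0.0582 and 0.11 in edgeR and, for IRF3, 0.00709 in DESeq2.

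Of the pathway genes named as the highest or lowest of their list, 4 passed the test of a different response between the sets at 200 ng/ml, beside TAP1, TAP2, PSMB8 and NLRC5 given above. That test was passed by 1.88% of all tested genes. The D-F response exceeded the A-C response by 0.78 for IFIH1, 0.69 for IRF2BPL, 4.56 for BATF2 and 6.91 for IDO1 on the log2 scale. The last 2 values are no measured sizes, because the D controls held almost no reads of BATF2 and none of IDO1, so that both depend on the prior count. IRF2BPL fell in A-C (-0.73) and had a value of -0.04 in D-F.

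Several samples stood far from the other 3 of their dose group. For IRF8 these were A1, at 0.161 CPM and 0.0807 TPM, and B1, at 0.166 CPM and 0.0855 TPM, each from 2 counts. For shares of transcript types they were A1 for retained-intron IRF7 (72.7%), C2 for retained-intron IRF7 (53.7%) and for nonsense-mediated decay of IRF7 (8.55%), D2 for nonsense-mediated decay of IRF3 (22.2%) and for protein-coding IRF1 (83.2%), and F2 for nonsense-mediated decay of IRF1 (0.339%). Chance marks about 1 in 20 such groups.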

How the results depend on the processing

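At 200 ng/ml, 3 members passed in each alternative that kept the adjusted threshold alone, and 1 with a 2-fold minimum on adjusted or unadjusted p. At 20 ng/ml the count of 2 became 1 with limma on TPM, without a filter, with a replicate block or with a 2-fold minimum on either p, and was 1 to 2 with a sample left out, the loss being IRF1 each time. Between doses DESeq2 passed 1 (IRF2) in place of 0, and leaving out a sample gave 0 to 1. For the difference between sets at 200 ng/ml DESeq2 passed 3, an unadjusted p with a 2-fold minimum 2, and leaving out a sample gave 0 to 2. For the controls of D against A the count of 2 became 1 with the replicate block (IRF1 lost, adjusted p = 0.0614) or a 2-fold minimum on either p, and 1 to 3 with a sample left out, where IRF1 was lost without A2 or D2 and IRF3 was gained without F1 or F2. With a sample left out, 24 to 26 genes of the pathway lists passed, against 25 with all samples, and 1 to 4 neighbouring genes, against 3, with 1 without A2 and 1 with limma on TPM. Of member transcripts 10 passed in DESeq2 and 0 to 3 with a sample left out, 3 without C2, and 1 to 4 transcripts reached the smallest p for shares, 4 without C2.

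Signs turned only for values that did not pass. With limma on TPM, IRF2 had -0.056 for the difference between sets at 20 ng/ml and 0.23 for D against A, IRF5 0.51 for D against A, IRF1 -0.18 at 20 ng/ml in A-C and TYK2 -0.14. IRF2 had 0.052 for D against A with the replicate block, and TYK2 -0.0025 without a filter. With a sample left out, the values ran at 200 ng/ml from -0.052 to 0.14 for IRF3, -0.0019 to 0.14 for IRF5, -0.42 to 0.15 for AC099343.2, -0.73 to 1.15 for AC116366.3, -0.024 to 0.10 for CDKN1A, -0.65 to 0.035 for IFNE and -0.042 to 0.073 for TYK2. In A-C at 20 ng/ml they ran from -0.013 to 0.10 for IRF1, -0.053 to 0.083 for IRF2 and -0.10 to 0.27 for IRF5. They ran from -0.20 to 0.093 for IRF5 in D against A and from -0.22 to 0.091 for IRF7 between doses. The cause of these turns was not tested.

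Same-numbered samples of a line set did not deviate together, with correlations of deviations from the group means of -0.03 to 0.05. The main fit therefore did not pair them, but these values cannot tell whether same-numbered samples were prepared together, which the labels do not say. At the depth of these libraries, IRF8 and 20 of the 21 interferon genes had too few counts to test.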

Other observations

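The controls of the sets differed in the genes known as IRF1 targets. Of the 18, 10 were lower and 3 higher in D than in A, with a median log2 difference of -0.78, where 22.4% of all tested genes were lower and 24.1% higher. IRF1 was lower in D in the same comparison, and a link between it and these genes was not tested. Of the 6 genes of the IFNα receptor, its kinases and ISGF3, 3 were lower in D and none was higher, with a median of -0.30. Of the 18 genes that activate IRF3 and IRF7, 5 were higher and 4 lower. IFNE was higher in D, by 1.26 on the log2 scale.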
